A study of Mus musculus with 9 samples.

Results

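The genes described here are the Slit ligands *Slit1*, *Slit2* and *Slit3*, their receptors *Robo1* and *Robo2*, and the netrin receptors *Dcc*, *Unc5a*, *Unc5b*, *Unc5c* and *Unc5d*. They were chosen by name rather than by a rule on measured values, but with earlier results of these data known. They make up 10 of the 17487 genes listed in at least 1 library. All 9 libraries listed 8 of them, whereas *Slit1* was not listed in 1 KO library (KO1) and *Slit3* was not listed in 1 WT library (WT3). The libraries were single-cell transcriptomes of mouse neocortex at E18.5, made with Chromium 3′ chemistry from 5 wild-type (WT1 to WT5) and 4 *Tcf4* knockout (KO1, KO2, KO4 and KO5) embryos of the Tcf4ex4WT/lacZ line. The study used littermates of both sexes, each library came from 1 embryo, and knockouts carried a lacZ/neomycin cassette in both copies of *Tcf4*. By the study's account the longest TCF4 isoform is lost and shorter ones remain, so that the knockout is not a full null. Genotypes were compared between WT2, WT3 and WT4 on one side and KO4 and KO5 on the other, and values of these are given in this order. The other 4 libraries stayed outside this comparison, WT1, KO1 and KO2 for their few cells and WT5 for its low *Tcf4*. Levels are given as unique molecular identifiers (UMIs) per 10000 UMIs of a cell, averaged over cells.

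Slit proteins are secreted and repel growing axons through Robo receptors. Netrin receptors of the Dcc type mediate attraction, and Unc5 receptors mediate repulsion. Both systems act at the midline, where they help to steer the callosal axons that upper layer neurons of the neocortex send to the other hemisphere. TCF4 is a basic helix-loop-helix factor that binds E-boxes, hexamers of the form CANNTG.

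The RefSeq table of gene starts (GRCm38.p6) held 7 of the 10 genes, all but *Slit1*, *Dcc* and *Unc5d*. The 250 bases upstream of a start are shown for the receptors *Robo1* and *Robo2* and for the ligand *Slit2*, to which the comparisons below refer most often. They are written 5′ to 3′ along the strand of the gene, with E-boxes in capitals.
Robo1 (chr16:72662899-72663148, + strand): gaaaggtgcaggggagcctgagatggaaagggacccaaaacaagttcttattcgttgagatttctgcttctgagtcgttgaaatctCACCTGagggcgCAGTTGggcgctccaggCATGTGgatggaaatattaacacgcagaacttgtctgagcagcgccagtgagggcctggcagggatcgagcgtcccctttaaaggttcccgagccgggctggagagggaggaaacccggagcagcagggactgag
Robo2 (chr16:74411826-74412075, − strand): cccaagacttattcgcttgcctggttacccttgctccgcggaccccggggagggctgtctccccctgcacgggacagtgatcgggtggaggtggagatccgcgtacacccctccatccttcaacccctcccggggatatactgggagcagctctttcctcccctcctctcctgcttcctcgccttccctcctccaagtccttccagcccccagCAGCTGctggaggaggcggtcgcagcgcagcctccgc
Slit2 (chr5:47982905-47983154, + strand): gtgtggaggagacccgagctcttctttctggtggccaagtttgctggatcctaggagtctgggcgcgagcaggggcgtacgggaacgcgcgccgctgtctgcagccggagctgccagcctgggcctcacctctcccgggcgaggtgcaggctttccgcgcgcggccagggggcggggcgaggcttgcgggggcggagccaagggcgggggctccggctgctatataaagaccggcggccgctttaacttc
This *Robo1* start lies inside the annotated gene. The *Robo1* window held 3 matches to CANNTG, the *Robo2* window 1 and the *Slit2* window 0. Of all 32851 windows of this length in the table, 66.2% held at least 1 match. The motif is its own reverse complement, so both strands were covered. In the other windows of these genes, both further *Robo2* starts held 1 match each, and *Slit3*, *Unc5a*, *Unc5b* and *Unc5c* held 0. Matches are descriptions of the letters in these windows, and 3′ libraries do not show which start was used.

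On GRCm38 (GENCODE vM21), *Robo1* lies on chromosome 16 from 72308306 to 73046095 (+ strand) and *Robo2* on the same chromosome from 73891839 to 74411825 (− strand). *Slit1* lies on chromosome 19 (41600257 to 41743665, −), *Slit2* on chromosome 5 (47983138 to 48307733, +) and *Slit3* on chromosome 11 (35121224 to 35708507, +). *Dcc* lies on chromosome 18 (71253634 to 72351069, −) and is the longest of these genes, with a span of 1097 kb. *Unc5a* lies on chromosome 13 (54949411 to 55006018, +), *Unc5b* on chromosome 10 (60762593 to 60831581, −), *Unc5c* on chromosome 3 (141465216 to 141834924, +) and *Unc5d* on chromosome 8 (28646717 to 29219636, −). All are annotated as protein coding, and none shares exon bases with another gene on its own strand. Exons of *Unc5a* and *Unc5c* overlap genes on the opposite strand, *Hk3* by 34 bases and an antisense gene by 118 bases.

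The libraries did not hold equally distinct cells, and this touches every comparison below. In the comparison, 1184 to 6173 WT and 2303 to 4199 KO cells were kept, with 3471916 to 29573654 and 5544735 to 10908233 UMIs per library, and median depths per cell of 2479 to 4359 in WT and 2217 to 2290 in KO. Cells were assigned to classes by marker genes (at least 2 of 6 markers, and more than of any other class), none of which is described here. *Neurod6*, a gene of cortical excitatory neurons that was not a marker, was at 0.320 to 0.361 of its upper layer level in the radial glia and astrocyte class of WT2, WT3 and WT4. In KO4 this ratio was 0.777, in KO5 0.959 and in WT5 0.948, and in the small libraries it was 1.16 (WT1), 0.427 (KO1) and 0.466 (KO2). *Vim*, a gene of radial glia, showed the same order, with 11.4-fold to 35.6-fold more in radial glia than in upper layer cells of WT2, WT3 and WT4, 2.94-fold in KO4, 1.60-fold in KO5 and 1.16-fold in WT5. The classes were thus less distinct in KO4, KO5 and WT5, and by *Neurod6* also in WT1, with 28 radial glia and 22 upper layer cells. All 6 erythroid markers together gave 5.41 to 8.52 UMIs per 10000 in the compared WT and 32.0 to 72.0 in the compared KO libraries, after cells above 1% haemoglobin UMIs had been left out. That step removed 0.42 to 1.34% of cells in the compared WT and 13.9 to 40.4% in the compared KO libraries. How far free RNA contributes to any difference was not tested.

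*Tcf4* itself had 12.2, 12.6 and 12.2 UMIs per 10000 in WT against 9.29 and 7.59 in KO, a log2 fold of −0.55 ± 0.13 (SE, adjusted p = 0.116 in limma). It passed the test in upper layer cells (log2 fold −0.63 ± 0.14, adjusted p = 0.0434). The libraries labelled WT5 and WT1 had 7.20 and 4.65, and the library labelled KO1 had 16.7, so *Tcf4* goes against the label in these 3. Any 2 libraries shared at most 39 cell barcodes. The labels give 1 number per library but no litter, so p-values measure the spread between the embryos sampled.

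*Robo2* was highest in newborn neurons and upper layer cells in WT. It had 1.98, 3.26 and 2.08 UMIs per 10000 in upper layer cells of the compared WT libraries, 1.31, 4.45 and 1.86 in newborn neurons, and 0.786, 1.13 and 1.03 in radial glia and astrocytes. Upper layer cells and newborn neurons overlapped, and all upper layer values lay above all deep layer values (0.977 to 1.81). Cajal-Retzius cells, the Reelin neurons of the marginal zone, averaged 2.08 over WT2 and WT4 (WT3 held only 13 of them). The lowest mean over 3 libraries was in cycling progenitors, at 0.818 ± 0.156 (SD, n = 3). After thinning of each cell to 1800 UMIs, 27.4% of upper layer cells of WT4 had a *Robo2* UMI, against 9.43% of microglia, which should lack it, and 6.82% of endothelial cells. Without thinning, 55.6% of the upper layer cells of the 3 WT libraries (95% exact binomial interval 53.8 to 57.3%) and 22.4% of the microglia (12.5 to 35.3%) had a UMI, at median depths in WT4 of 4926 and 3354 UMIs. The thinned share of microglia was 36.6% in KO4, above that of its upper layer cells (22.5%), and that of its endothelial cells was 11.1%. Such intervals cover counting error only.

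*Robo1*, the other Slit receptor, had 0.667, 0.914 and 0.748 UMIs per 10000 in upper layer cells of the compared WT libraries, and 0.638, 0.208 and 0.403 in radial glia and astrocytes. Neighbouring classes overlapped in the order upper layer, newborn neurons, deep layer, radial glia and intermediate progenitors. Intermediate progenitors (0.345 to 0.400) lay above cycling progenitors (0.216 to 0.281) without overlap. In striatal neurons, a class that a neocortical dissection can carry along, *Robo1* reached 1.15 in WT4, the only WT library with at least 20 such cells.

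Of the ligands, *Slit2* gave the most UMIs in every compared library. It had 0.511, 0.202 and 0.245 UMIs per 10000 in newborn neurons, 0.190, 0.210 and 0.217 in radial glia and astrocytes and 0.198, 0.146 and 0.176 in upper layer cells, always in the compared WT libraries. These 3 classes overlapped with their neighbours in the order. Deep layer cells had the lowest mean, with no UMI in the 29 cells of WT2 and the 22 cells of WT3, and 0.0444 in WT4. Taken as 3 counts over the number of cells, these zeros allow up to 10.3 and 13.6% of cells with a UMI. That is above the shares in upper layer cells of WT2 and WT3 (4.63 and 5.73%), so the zeros do not place deep layer cells below them. *Slit1* stayed at or below 0.202 in every class of the WT libraries with all 3 libraries at 20 cells or more, highest on average in cycling progenitors (0.110 ± 0.088, SD, n = 3), and its classes overlapped throughout. *Slit3* had 3 UMIs in WT2 and 47 in WT4 over all kept cells, and its distribution over classes was not detectable at this depth.

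*Unc5d*, a netrin receptor that also binds the adhesion protein FLRT2, was highest in newborn neurons. It had 2.18, 2.68 and 1.59 UMIs per 10000 there in WT, against 1.21, 1.32 and 0.759 in intermediate progenitors and 0.565, 1.17 and 0.697 in upper layer cells. Newborn neurons lay above intermediate progenitors without overlap, and each further neighbour in the order overlapped. Thinned to 1800 UMIs, 23.9, 35.4 and 23.7% of newborn neurons and 8.48, 16.0 and 10.3% of upper layer cells had a *Unc5d* UMI. In endothelial cells the thinned share was 0% in WT2 and WT3 and 4.55% in WT4, but it was 11.3% in the 53 microglia of WT4. The share of upper layer cells in WT4 thus lay at the level of a class that should lack the gene, whereas that of newborn neurons lay above it.

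Among the classes measured in 3 libraries, *Unc5c* was highest in upper layer cells, at 0.205, 0.240 and 0.280 UMIs per 10000 in WT. These values did not overlap with the next class, radial glia and astrocytes (0 to 0.117). Interneurons had 0.479 in WT2, from 3 UMIs in 22 cells, and 0.164 in WT4, from 12 UMIs in 202 cells. *Unc5b* was a gene of the vessels in these data, with 1.08 and 1.34 in endothelial cells of WT2 and WT4, and 3.01 in the 13 such cells of WT3. In Cajal-Retzius cells it had 0.544 in WT2 and 0.567 in WT4, and in upper layer cells 0.00427 to 0.0138. Its UMIs were found in 30 of 79 endothelial cells of the 3 libraries (38.0%, exact binomial 27.3 to 49.6%), 24 of 92 Cajal-Retzius cells (26.1%, 17.5 to 36.3%) and 17 of 3183 upper layer cells (0.534%, 0.311 to 0.854%).

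*Dcc* and *Unc5a* were sparse. *Dcc* averaged 0.274 ± 0.205 UMIs per 10000 in WT newborn neurons (0.509, 0.134 and 0.178 in WT2, WT3 and WT4) and 0.0712 ± 0.0242 in upper layer cells (SD, n = 3 for both), the highest and the lowest of the classes measured in 3 libraries. *Unc5a* ranged from 0.0326 ± 0.0247 in cycling progenitors to 0.130 ± 0.097 in deep layer cells. For both genes every neighbouring pair of these classes overlapped. Cajal-Retzius cells had more *Unc5a*, with 0.232 in WT2 and 0.282 in WT4.

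**Figure D1:**
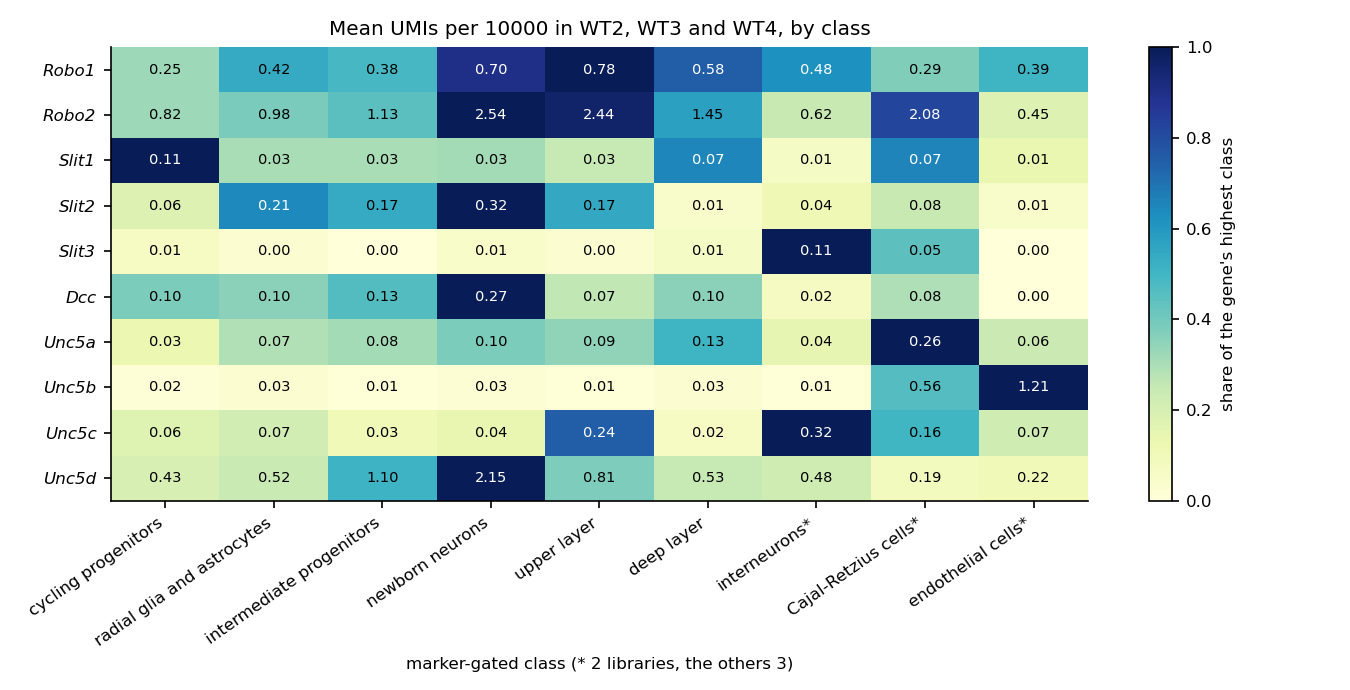
Mean level in UMIs per 10000 over WT2, WT3 and WT4 of each gene (rows) in 9 marker-gated classes (columns, those with a star from WT2 and WT4 alone), with colour giving the share of the gene's own highest class. *Unc5d* peaks in newborn neurons, *Unc5c* in interneurons and upper layer cells and *Unc5b* in endothelial cells.

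Differences between classes were then tested with the library as a block, over the 5 compared libraries. No gene of the 10 was called at an adjusted p below 0.05 in any of the 4 contrasts against upper layer cells. Backgrounds are the shares of all genes that limma called at this threshold, and do not apply to edgeR. Calls by edgeR are given without such a share and are not read as a result about these genes. At an unadjusted p below 0.05 there were 554 of all 8679 genes for deep layer cells and 918 of 8666 for newborn neurons. For radial glia and astrocytes there were 2848 of 8966, and for interneurons 673 of 8599. In deep layer cells 0 of 6 tested genes were called, against a background of 0.138% of all genes tested, with 3 at an unadjusted p below 0.05 and 2 called by edgeR (*Robo2* and *Unc5c*, lower). In newborn neurons 0 of 7 were called (background 0.623%), with 3 at an unadjusted p below 0.05 and 3 called by edgeR (*Dcc* and *Unc5d* higher, *Unc5c* lower). In radial glia and astrocytes 0 of 6 were called (background 8.48%), with 3 at an unadjusted p below 0.05 and 1 called by edgeR (*Robo1*, lower). In interneurons, of which WT3 held only 9 and was kept in this fit, 0 of 5 were called (background 0.105%), with 2 at an unadjusted p below 0.05 and 1 called by edgeR (*Robo2*, lower). *Slc32a1* and *Gad2*, inhibitory neuron genes that were not markers, were 4.39-fold to 14.6-fold and 3.03-fold to 11.1-fold their upper layer level in WT interneurons. In KO4 they were 0.252-fold and 0.933-fold, and in KO5 0.572-fold and 1.46-fold. The interneuron class of KO4 and KO5 was thus poorly separated from upper layer cells.

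Within WT2, WT3 and WT4 alone, where the classes were most distinct, *Robo2*, *Robo1*, *Unc5c* and *Unc5d* were called lower in radial glia and astrocytes than in upper layer cells, 4 of 6 genes tested against a background of 33.3%. The log2 difference was −1.21 ± 0.12 for *Robo2* (adjusted p = 2.19e-07 in limma), −1.08 ± 0.23 for *Unc5c*, −0.84 ± 0.25 for *Robo1* and −0.51 ± 0.17 for *Unc5d*. That of *Unc5c* rests on 3, 0 and 31 UMIs in radial glia and astrocytes. Radial glia and astrocytes held 1.02, 0.468 and 0.622 of the upper layer level of *Unc5d* in WT2, WT3 and WT4. For *Robo1* the shares were 0.956, 0.227 and 0.539, so WT2 showed little or no step down for either gene. *Slit2* was not called, with a log2 difference of 0.16 ± 0.19. In newborn neurons, 2 of 7 genes were called against a background of 3.76%. *Unc5d* was higher there, by 1.33 ± 0.15 on the log2 scale (adjusted p = 0.000555), and *Unc5c* was lower, at −1.24 ± 0.24 (adjusted p = 0.0156), from 1, 1 and 8 UMIs in newborn neurons. *Robo2* did not pass this test, with a difference of −0.09 ± 0.16. In interneurons, *Robo2* was lower, at −1.62 ± 0.29 (adjusted p = 6.94e-06, 1 of 5 genes, background 1.55%). These cells gave only 2, 4 and 76 *Robo2* UMIs in WT2, WT3 and WT4, and WT3 held just 9 of them. In deep layer cells 0 of 7 genes were called (background 0.595%), with *Unc5c* at −1.52 ± 0.41 and an adjusted p of 0.160. With KO4 kept and only KO5 left out, the fit called 2 genes each in newborn neurons (*Unc5d* and *Unc5c*) and in radial glia (*Robo2* and *Unc5c*). The backgrounds given above are not those of this fit, so its calls are not read as a result about these genes.

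Over all kept cells, 4 of the 6 genes tested between genotypes lay lower in both KO libraries than in all 3 WT libraries, and 1 lay higher, but none was called. Among all genes tested, 43.9% lay lower and 9.03% higher without overlap, and 1.10% were called. The other 4 genes (*Slit1*, *Slit3*, *Unc5a* and *Unc5b*) stayed under the limit on low values, 0.1 UMIs per 10000 in at least 2 libraries. *Dcc*, 1 of the 4 lower genes, reached that limit in WT2 and WT4 alone. It was thus tested only through the group where it is high, and its place among the lower genes is not independent of the limit. The median log2 fold of the 6 was −0.35 and that of all genes −0.16. At an unadjusted p below 0.05 there were 3 genes (*Dcc*, *Slit2* and *Unc5d*), against 2297 of all 8554 genes tested. EdgeR called 0 and DESeq2 called 1, *Unc5d*.

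*Unc5d* had 0.641, 1.28 and 0.667 UMIs per 10000 in WT against 0.398 and 0.311 in KO. The KO values lay below all 3 WT values, of which WT3 was the highest. The log2 fold was −1.03 ± 0.27 (adjusted p = 0.123 in limma). It was called by DESeq2 (adjusted p = 0.0254) and in limma without WT4 (adjusted p = 0.0339). Both settings also called more of all genes than the main fit, with the counts given in the closing section. Outside the comparison, the library labelled KO1 had 1.51 and KO2 0.673, and the library labelled WT5 had 0.276. With all libraries as labelled the log2 fold turned to 0.08, and with KO1 and KO2 in place of KO4 and KO5 it was 0.27, neither of them called.

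*Slit2* had 0.156, 0.158 and 0.158 against 0.101 and 0.0985 (log2 fold −0.37 ± 0.10, adjusted p = 0.130). The WT libraries were closer to each other than to either KO library. WT5 had 0.0621, below both, and KO1 and KO2 had 0.291 and 0.198, above the compared WT libraries. The fold was 0.08 with all libraries as labelled and 0.41 with KO1 and KO2 in place of KO4 and KO5, again not called.

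*Dcc* had 0.108, 0.0981 and 0.109 in the WT and 0.0698 and 0.0572 in the KO libraries (log2 fold −0.33 ± 0.11, adjusted p = 0.145), from 31 to 320 UMIs per library. *Robo2* had 1.41, 2.78 and 1.59 against 1.39 and 1.15 (log2 fold −0.51 ± 0.27, adjusted p = 0.240), with KO4 and WT2 nearly at the same level and WT3 apart. *Unc5c* was the gene that lay higher in KO, with 0.141, 0.129 and 0.153 against 0.170 and 0.155 (log2 fold 0.12 ± 0.11, adjusted p = 0.462). *Robo1* overlapped between genotypes, at 0.601 to 0.731 in WT and 0.657 to 0.699 in KO. In bulk values over all cells, fewer cells of a class and less RNA per cell cannot be told apart. Among classes measured in 3 WT libraries, newborn neurons had the highest mean of *Unc5d*, *Slit2* and *Dcc*. They were 46 of 1184, 127 of 1617 and 397 of 6173 kept cells in WT, and 57 of 4199 and 25 of 2303 in KO. The part of this in the differences was not tested.

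**Figure D2:**
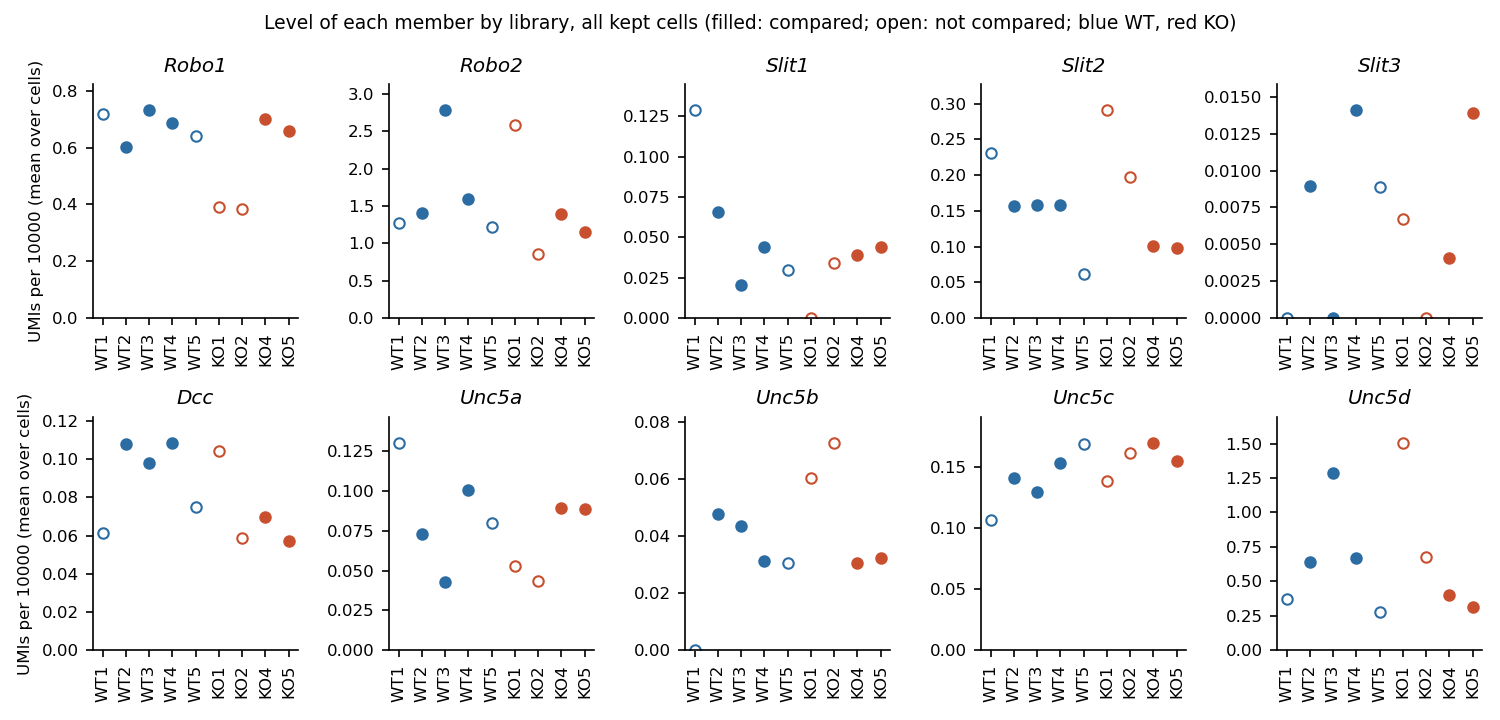
Level of each gene (UMIs per 10000, mean over all kept cells) by library, 1 point per library, blue for WT and red for KO, filled for the 5 compared libraries and open for the others. Filled red points of *Unc5d*, *Slit2*, *Dcc* and *Robo2* lie below all filled blue points, and the open points of KO1 lie at or above most blue points for *Unc5d*, *Slit2* and *Robo2*.

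In upper layer cells, the class with the callosal neurons, 3 of 5 genes tested lay lower in both KO libraries than in all WT libraries (background 33.3%), and 0 were called (background 2.98%). At an unadjusted p below 0.05 these were the same 3 genes, against 1913 of all 8283 genes tested. EdgeR called 0 and DESeq2 called 1. *Robo2* had 1.98, 3.26 and 2.08 UMIs per 10000 in WT against 1.53 and 1.16 in KO (log2 fold −0.79 ± 0.21, adjusted p = 0.0779 in limma). It was called without WT4 (adjusted p = 0.0354). *Unc5d* had 0.565, 1.17 and 0.697 against 0.427 and 0.245 (log2 fold −1.04 ± 0.28, adjusted p = 0.0871). DESeq2 called it (adjusted p = 0.0345). The background of 2.98% is that of the main fit and does not apply to the calls by DESeq2 or without WT4. Those calls are given without a share over all genes and are not read as a result about these genes. *Slit2* had 0.198, 0.146 and 0.176 against 0.0981 and 0.0890 (log2 fold −0.49 ± 0.16, adjusted p = 0.121). It reached the limit on low values in the WT libraries alone, so it was among the 5 tested genes only through the group where it is high. KO1, with 77 upper layer cells, had 4.50 for *Robo2*, 2.18 for *Unc5d* and 0.241 for *Slit2*, and WT5 had 1.31, 0.252 and 0.0722. When WT1, WT5 and KO1 joined under their labels, the log2 folds of *Robo2* and *Unc5d* turned to 0.13 and 0.66, and neither was called. Thinned to 1800 UMIs, 28.3, 41.4 and 27.4% of WT and 22.5 and 18.1% of KO upper layer cells had a *Robo2* UMI, where KO4 microglia had the higher share given above, and 8.48, 16.0 and 10.3% against 7.51 and 3.91% had one of *Unc5d*.

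In newborn neurons, of which KO5 held 25, *Unc5d* had 2.18, 2.68 and 1.59 UMIs per 10000 in WT, 0.993 in KO4 and no UMI in KO5, which allows a share of cells with a UMI of up to 12.0% there (taken as 3 counts over the number of cells). The log2 fold of −2.74 ± 0.81 (adjusted p = 0.173) rests on the pseudocount of 0.1 because of the 0 in KO5. With a pseudocount of 1 the fold was −1.14 and called (adjusted p = 0.0183), and without KO4 it was −4.46 and called (adjusted p = 1.46e-07). The latter rests on KO5 alone, so that the spread comes from WT only, and its size is set by the pseudocount. *Unc5d* and *Slit2* were the 2 of 6 genes that lay lower in both KO libraries (background 22.2%). None of the 6 was called (background 0.286%), and edgeR and DESeq2 called 0. An unadjusted p below 0.05 was found for 1 of them, against 1416 of all 8734 genes tested. *Slit2* had 0.511, 0.202 and 0.245 against 0.183 and 0.198 (log2 fold −0.46 ± 0.48, adjusted p = 0.661). WT5, with 26 such cells, had 0.194 for *Unc5d*. In deep layer cells 0 of 5 genes were called (background 0.124%), and edgeR and DESeq2 called 0. None had an unadjusted p below 0.05 (566 of all 8864 genes tested), and no gene was free of overlap.

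In radial glia and astrocytes, *Slit2* was the only 1 of 7 genes that was called between genotypes (background 6.62%). It had 0.190, 0.210 and 0.217 UMIs per 10000 in WT, 0.0757 in KO4 and none in KO5, where 0 of 283 cells had a UMI, which allows up to 1.06%. These levels rest on 7, 9 and 56 UMIs in WT and 9 in KO4. Only the WT libraries reached the limit on low values (0.1 UMIs per 10000). *Slit2* thus entered this test through the group where it is high, and the call is not independent of that limit. The log2 fold was −1.20 ± 0.30 (adjusted p = 0.0278 in limma). The call was lost in edgeR (adjusted p = 0.0850 with TMM), without WT2 (adjusted p = 0.0552), without KO5 (adjusted p = 0.460, with KO4 alone and the spread from WT only), with 3 markers per cell required (adjusted p = 0.0712) and with cells rich in haemoglobin kept (adjusted p = 0.0537), and DESeq2 gave no adjusted p for it. KO1 had 0.382, KO2 0.272 and WT5 0.0465, and the fold turned to 0.17 with all libraries as labelled. *Slit2* and *Unc5d* lay lower in both KO libraries (2 of 7 genes, background 32.1%), and *Unc5c* lay higher (1 of 7, background 12.6%). *Unc5d* had 0.576, 0.546 and 0.434 against 0.295 and 0.386 (log2 fold −0.49 ± 0.24, adjusted p = 0.237). *Unc5c* had 0.0921, 0 and 0.117 against 0.166 and 0.203 (log2 fold 0.82 ± 0.34, adjusted p = 0.163).

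**Figure D3:**
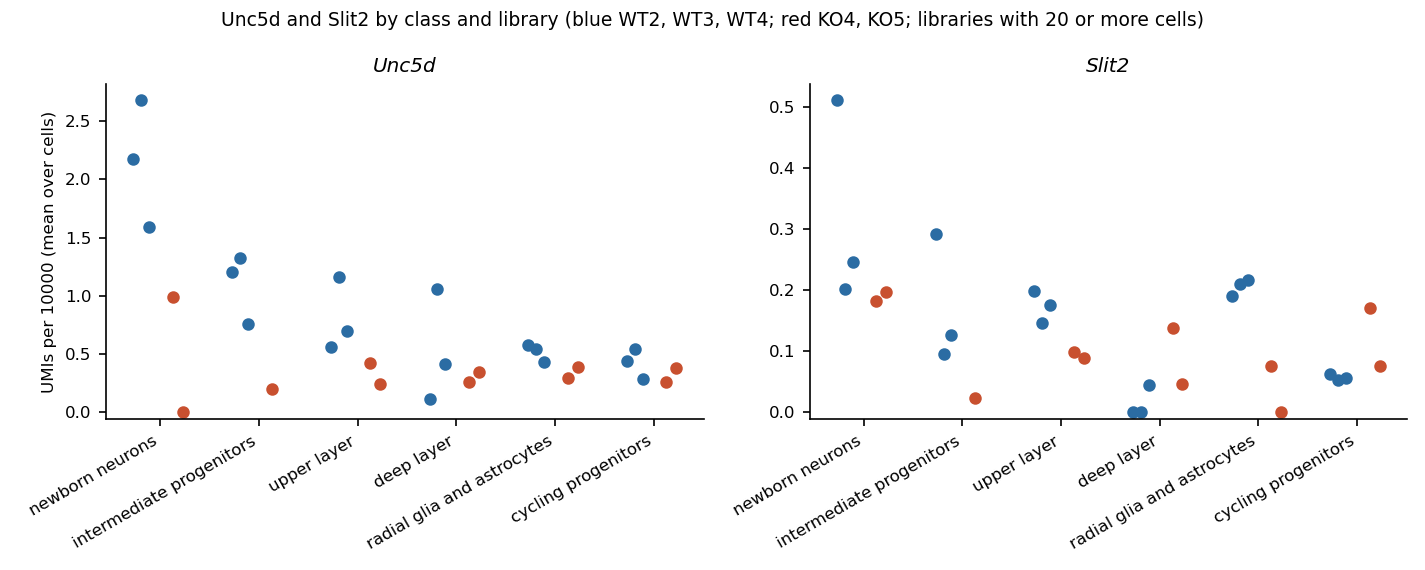
Levels of *Unc5d* and *Slit2* (UMIs per 10000, mean over cells) in 6 classes, 1 point per library with at least 20 cells, blue for WT2, WT3 and WT4 and red for KO4 and KO5. *Unc5d* in newborn neurons lies between 1.59 and 2.68 in WT and at 0.993 and 0 in KO, and *Slit2* in radial glia and astrocytes at 0.190 to 0.217 in WT and at 0.0757 and 0 in KO.

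**Figure D4:**
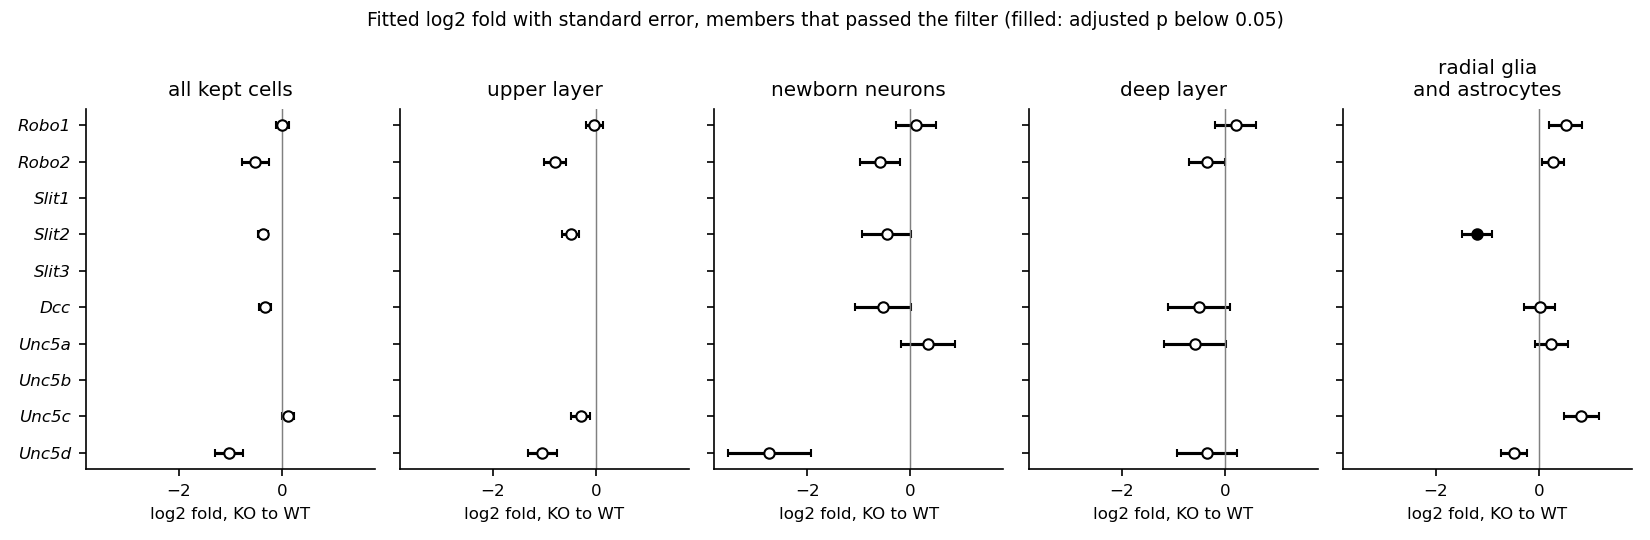
Fitted log2 fold of KO4 and KO5 to WT2, WT3 and WT4 (horizontal axis, bars are standard errors) for the genes that passed the limit on low values, in all kept cells and 4 classes. The filled point, *Slit2* in radial glia and astrocytes, has an adjusted p below 0.05, and the open points do not. *Slit2* passed that limit in this class through the WT libraries alone.

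The step from upper layer cells to radial glia differed between genotypes for 2 of 6 genes tested (background 12.0%). For *Robo2*, radial glia and astrocytes held 0.396, 0.346 and 0.497 of the upper layer level in WT but 0.720 and 1.12 in KO, a difference of 1.06 ± 0.19 on the log2 scale (adjusted p = 0.000641 in limma). For *Unc5c* the shares were 0.449, 0 and 0.418 in WT and 0.733 and 1.52 in KO (1.12 ± 0.34, adjusted p = 0.0338). Its levels in radial glia and astrocytes rest on 3, 0 and 31 UMIs in WT and 18 and 15 in KO. The 0 among the 111 cells of WT3 allows up to 2.70% of cells with a UMI. Both genes stepped down in WT2, WT3, WT4 and KO4, and in KO5 radial glia lay above upper layer cells. *Neurod6* moved in the same way, from 0.320 to 0.361 in WT to 0.777 and 0.959 in KO, and WT5 had 0.766 for *Robo2*, 1.19 for *Unc5c* and 0.948 for *Neurod6*. KO1 had 0.307 for *Robo2* and 0.262 for *Unc5c*, with *Neurod6* at 0.427. The part of this loss of distinctness in the difference was not tested, and in the compared libraries it cannot be told apart from genotype. For deep layer cells and newborn neurons 0 genes of the 10 passed this test, with 1 each at an unadjusted p below 0.05 (*Slit2* and *Unc5d*).

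**Figure D5:**
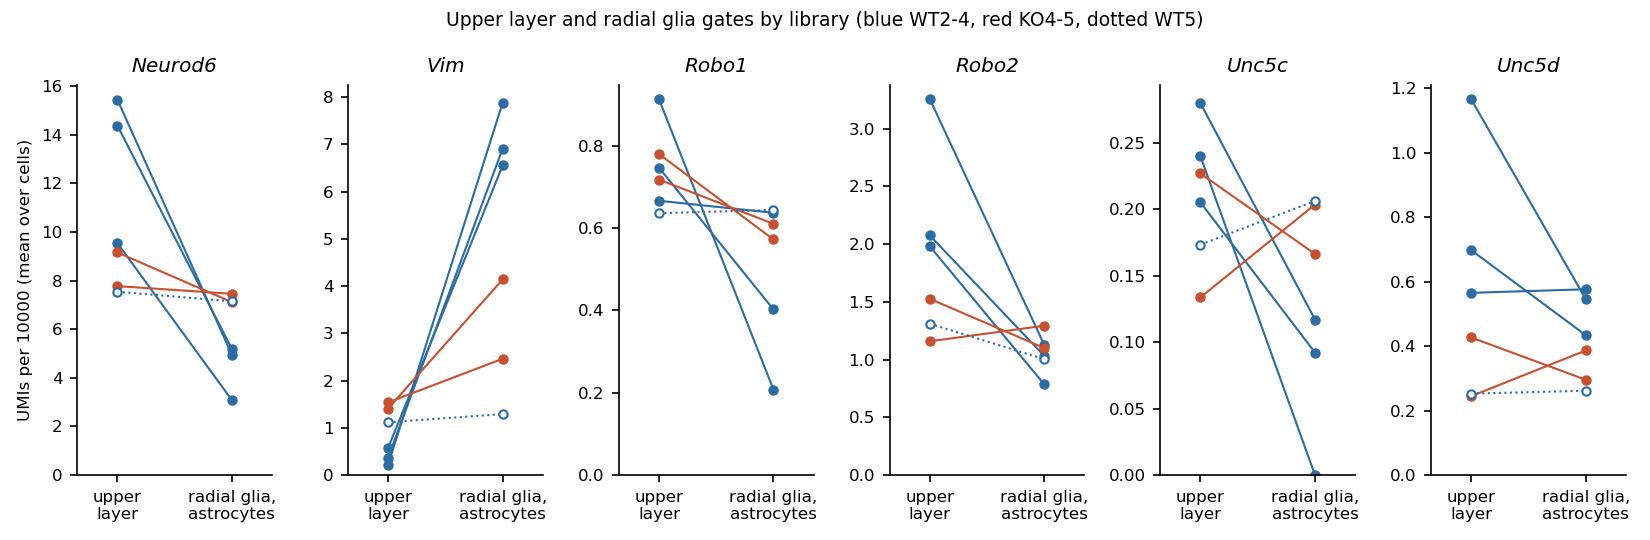
Levels (UMIs per 10000, mean over cells) in upper layer cells and in radial glia and astrocytes, joined for each library, for 2 genes that check the gates (*Neurod6* and *Vim*) and for 4 receptors, blue for WT2, WT3 and WT4, red for KO4 and KO5 and dotted for WT5. Lines of the WT libraries are steep for *Neurod6*, *Vim* and *Robo2*, whereas those of KO5 and WT5 are nearly flat for *Neurod6*.

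In the endothelial class, *Unc5b* had 1.08 and 1.34 UMIs per 10000 in WT2 and WT4 against 0.238 and 0.714 in the KO libraries, which held 72 and 20 such cells. No test was made, since WT3 held fewer than 20 cells. *Neurod6*, which vessels should lack, was at 1.24, 0.415 and 2.15 in the endothelial class in WT and at 5.70 and 6.57 in KO. In WT5 *Unc5b* was at 0.125 and *Neurod6* at 4.78.

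Ligands, co-receptors and effectors of the same pathways were followed as a list of 32 genes, of which 30 were listed. Over all kept cells 0 of the 24 tested were called between genotypes. In upper layer cells 1 of 24 was called, near the background of 2.98%. This was *Flrt3*, an adhesion protein that binds Robo1 and Unc5 receptors, with 0.934, 1.41 and 1.27 UMIs per 10000 in WT against 0.648 and 0.413 in KO (log2 fold −1.06 ± 0.21, adjusted p = 0.0208). WT5 had 0.476 and KO1 0.516, both within the range of the KO libraries. Neither newborn neurons (24 tested) nor deep layer cells (25 tested) had a called gene of the list. In radial glia and astrocytes 2 of 26 were called, both lower, near the background of 6.62%. *Dag1*, the dystroglycan that binds Slit proteins, had 0.831, 0.823 and 0.709 against 0.292 and 0.176 (log2 fold −1.43 ± 0.24, adjusted p = 0.00275). *Myo10*, an unconventional myosin of filopodia, had 0.533, 0.546 and 0.470 against 0.262 and 0.191 (log2 fold −0.92 ± 0.24, adjusted p = 0.0367). Both were low in WT5 as well (0.104 and 0.0625) and high in KO1 (1.58 and 1.07). Between radial glia and upper layer cells of the 5 libraries, *Rgma* and *Myo10* were higher (log2 difference 0.80 and 1.55) and *Srgap1*, a GTPase activator downstream of Robo, was lower (−0.51), 3 of 24 tested against a background of 8.48%.

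Across 12 classes, on the log2 scale of WT means, the genes closest to *Unc5d* in pattern were *Neurod1* (Pearson r = 0.969), *Cttnbp2* (0.907) and *Pam* (0.892), out of 6013 genes. *Neurod1* was itself a marker of the newborn neuron class. Those closest to *Robo2* were *Srm* (0.958), *Mturn* (0.928) and *Mob4* (0.914), and those closest to *Robo1* were *St8sia2* (0.881), *Elmod1* (0.871) and *Apc2* (0.860). *Unc5b* was closest to *Cobll1* (0.978), *Sgms1* (0.967) and *Pdzd2* (0.962). These are descriptions over classes that share libraries and depth. Within single upper layer cells of WT4, thinned to 1800 UMIs, *Robo2* and *Unc5d* were found together in 86 of 2113 cells (4.07%), where the product of their separate shares is 2.81%. *Robo1* and *Robo2* were found together in 71 cells (3.36%, product 3.14%).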

How the data were processed

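Libraries WT4, WT5, KO4 and KO5 were deposited as whole UMI counts. The remaining 5 hold values that the authors had deposited in log form, as natural log of UMIs per 10000 after adding 1, and whole UMIs were recovered from them (100% of values whole within 1e-06). Per the labels, Cell Ranger, GRCm38 and Seurat were used upstream.

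Kept cells had 1000 to 5000 genes, 1800 to 10000 UMIs, under 6% mitochondrial and at most 1% haemoglobin UMIs. A cell joined 1 of 13 classes when at least 2 of its 6 markers were detected, more than for any other class. Erythroid markers took no part, as 77.1 to 100% of kept cells in the compared libraries held a haemoglobin UMI. Cells without a class (60.0 to 75.3% had one in the compared libraries) count only in all kept cells, and no doublet caller was used. Of the 1498 radial glia and astrocytes and 5453 upper layer cells in the compared libraries, 30.2% and 22.2% had just 2 markers.

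The embryo was the replicate. Means per library and class were compared with limma-trend with robust variances (limma 3.58.1, R 4.3.3) on log2(value + 0.1), so folds of low genes are understated, where a gene reached 0.1 UMIs per 10000 in 2 libraries (class contrasts: in 25% of profiles). Adjusted p are Benjamini-Hochberg values over all genes tested, called below 0.05. A class was compared between genotypes where each library held at least 20 cells, which left out interneurons. Alternatives were edgeR 4.0.16 and DESeq2 1.42.0 on recovered UMIs, another pseudocount, no limit on low values, pooled sums, other libraries, stricter gates and thinned cells. The test of differences between classes in the genotype effect was chosen after seeing the data. Fits were tested on simulated data. The genes and lists were chosen with earlier results of these data known. Fold, SE and adjusted p are given for genes called or without overlap between genotypes, and for the class contrasts within WT. Pathway genes with values are those called, and genes of similar pattern are the 3 with the highest r per gene at 0.5 UMIs per 10000 or more in a class. Positions come from GENCODE vM21, another release than the authors' annotation.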

Additional observations from a re-analysis of the deposited data

Results flagged for a closer look

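Among the 5 libraries labelled WT, *Robo2* in WT3 (2.78 UMIs per 10000 over all kept cells) stood apart from the others. It was the 1 case in 22 groups of values checked in this way, and chance gives about 1 in 20. The difference between radial glia and upper layer cells changed with genotype for *Robo2* (by 1.06 on the log2 scale) and *Unc5c* (by 1.12), beside the values of *Neurod6* given above. In libraries outside the comparison and with at least 10 UMIs of the gene, levels above WT2, WT3 and WT4 were seen for *Slit2* in KO1 (0.291) and KO2 (0.198), for *Unc5d* in KO1 (1.51) and for *Unc5c* in WT5 (0.169).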

How the results depend on the processing

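Counts of called genes of the 10 depended on the setting. Over all kept cells and in upper layer cells, DESeq2 called 1 and leaving out 1 library gave 0 to 1, against 0. In newborn neurons a pseudocount of 1 gave 1 and leaving out 1 library 0 to 1. In radial glia and astrocytes, leaving out 1 library gave 0 to 1, and the count fell from 1 to 0 without a limit on low values, with edgeR (TMM or RLE), DESeq2 (which gave *Slit2* no adjusted p), WT5 added, all libraries as labelled, haemoglobin-rich cells, thinned cells, 3 markers, or KO1 and KO2 for KO4 and KO5 (chosen after seeing the data). *Slit2* there turned to 0.17 with all libraries as labelled, 0.47 with KO1 and KO2, and 0.31 with the replicate block. Against upper layer cells, a pseudocount of 1 gave 1 in deep layer cells and interneurons, and edgeR gave 2 in deep layer cells, 3 in newborn neurons and 1 each in radial glia and interneurons. WT2, WT3 and WT4 alone gave 2 in newborn neurons, 4 in radial glia and 1 in interneurons. Thinning gave 1 in newborn neurons and interneurons, and 3 markers 1 in interneurons. Leaving out 1 library gave 0 to 2 in newborn neurons and radial glia and 0 to 1 in interneurons. The causes were not tested. Over all genes, calls between genotypes in all kept cells went from 94 to 0 without KO5, with WT5 added or with the block, to 1588 without WT4 and to 330 with DESeq2, and in radial glia from 601 to 0 with WT5 added, 79 without KO5 and 1097 without WT4. Their range over all settings was 0 to 953 in upper layer cells (247 as reported), 0 to 1216 in newborn neurons (25) and 0 to 147 in deep layer cells (11).

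With the replicate number as a block, 0 genes of the 10 were called in each of the 5 genotype comparisons, and *Unc5d* over all kept cells was at a log2 fold of 0.34. Same-numbered libraries correlated in their deviations at −0.09, 0.24, 0.23 and 0.51 (2915 genes), so 1 of the 4 pairs was not above 0.1, and as the labels tie no number to a litter or batch the numbers were not taken as pairs. Of 293 alternative fits of 20 folds, 239 kept the direction and the side of the threshold. That number includes folds called in neither fit, so it does not measure stability. Of the others, 28 gained a call and 9 lost one. A further 14 changed direction without a call in either fit, and 3 changed direction with a call in at least 1 of the fits. The gate of 3 markers could not be fitted in newborn neurons and deep layer cells, and KO1 and KO2 lacked cells in upper layer, newborn and deep layer classes. Genes under about 0.1 UMIs per 10000 (*Slit1*, *Slit3*, *Unc5a*, *Unc5b*) are limited by depth.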
